A study of Mus musculus with 10 samples.

Results

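Retina from mice with oxygen-induced retinopathy (OIR) that had been injected with phosphate-buffered saline (PBS) was compared with untreated retina, both at postnatal day 17. The comparison takes 4 of the 10 arrays of the series, 2 labelled as PBS-injected OIR and 2 labelled as untreated day 17 retina, and covers genes whose array probes (a transcript cluster, read out as 1 value) carry a single gene symbol. There are 30604 such clusters among 65956, they stand for 30063 genes, and 23255 of these genes had enough signal to be tested. Mice of the PBS group were kept in 75% oxygen for 5 days from postnatal day 7 and returned to air, and PBS went into the vitreous, the gel behind the lens, once the oxygen exposure had ended. Untreated mice had neither the oxygen nor the injection, so what the return from oxygen and what the injection brought about cannot be told apart in this contrast. For that reason 2 arrays of OIR retina without injection, of the same age and oxygen exposure, are given beside it. The strain was C57BL/6JJmsSlc in each of these groups, and the labels name no engineered allele. It is not stated whether an array holds RNA of 1 animal or of a pool, or whether both arrays of a group stem from different animals. A p-value here thus reflects only how far the 10 arrays of the series vary within their groups, and that variation may be technical.

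In this model, high oxygen stops the growth of the retinal vessels and removes capillaries that have already formed. Back in air, the poorly supplied central retina becomes hypoxic. Hypoxia-inducible factors (HIF) then build up and switch on genes such as Vegfa, vessels sprout from the surviving network, and some sprouts leave the retina as tufts. Müller glia, the radial support cells that span the retina, and the astrocytes on its inner surface respond with intermediate filament and acute-phase genes. A saline injection is the usual control for a compound given by the same route.

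Expression is given as log2 signal, on which a step of 1 is a doubling, and a difference is the mean of the PBS arrays minus the mean of the untreated arrays with its standard error (SE). Tests are from limma, a linear model fitted to all genes, and adjusted p-values use the Benjamini-Hochberg method over the 23255 genes. The labelled tissue was borne out by its markers: the 19 tested rod genes averaged 10.97 to 11.13 on the 4 arrays, against 6.86 to 6.92 for all tested genes. The arrays differed in their small structured RNAs in a way the labels do not explain. The 68 small nucleolar and Cajal body RNA genes averaged 9.20 and 8.50 on PBS arrays 1 and 2, 7.36 and 8.33 on untreated arrays 1 and 2, and 7.82 and 8.39 on the uninjected OIR arrays. For the 69 clusters of 5S ribosomal RNA the same averages were 10.04 and 9.66, 7.88 and 9.36, and 8.72 and 9.43. PBS array 1 was thus the highest and untreated array 1 the lowest in both sets, which were chosen after their values were seen. Leaving out untreated array 1 took the median difference of the 5S set from 1.33 to 0.42. The part that this difference between arrays plays in the results was not tested. Some gene lists had 3 or more members below an unadjusted p of 0.05. For these, the lowest count without 1 of the 4 arrays is given where it fell by over 1.5 times. Leaving out other arrays also moved some counts, and those are not all given.

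**Figure D1:**
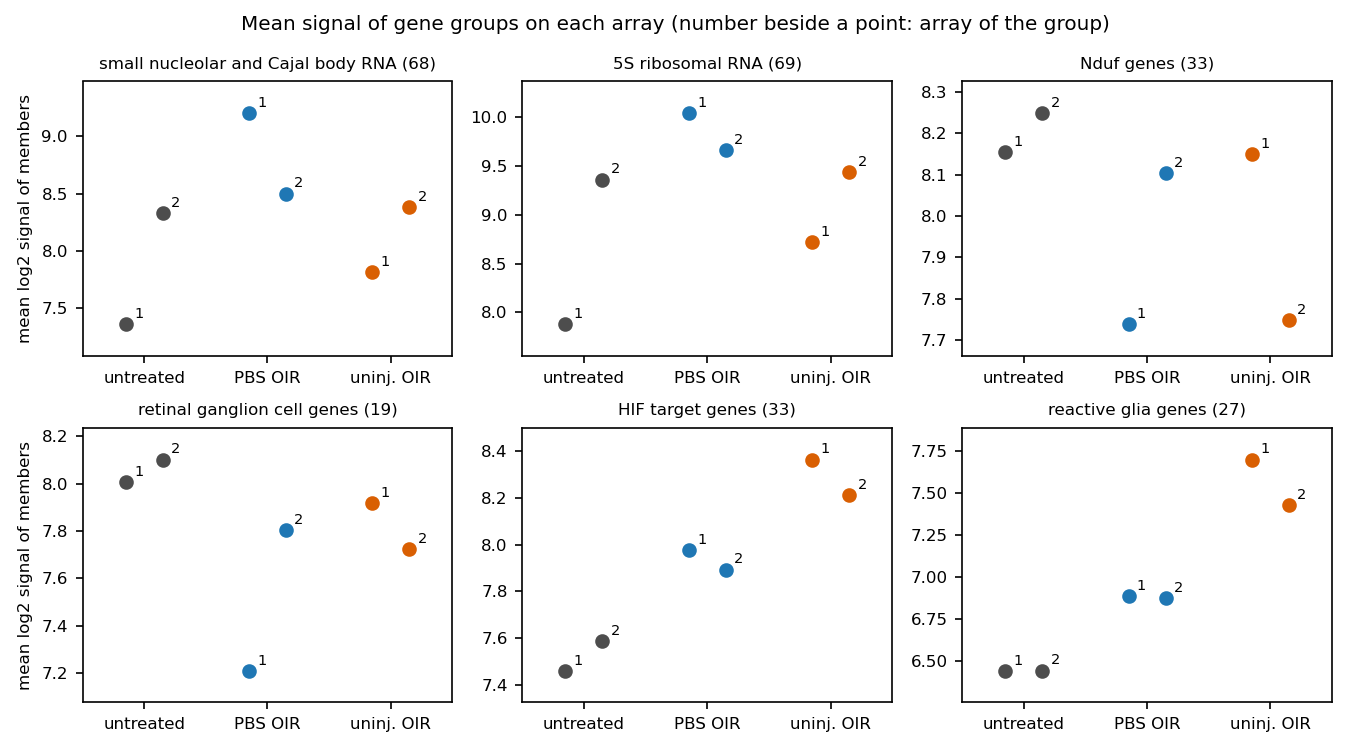
Mean log2 signal of 6 gene groups on each array (y axes), with untreated, PBS-injected OIR and uninjected OIR retina on the x axis and the number of the array beside each point. Small nucleolar RNA ran from 7.36 on untreated array 1 to 9.20 on PBS array 1, while the HIF target and reactive glia genes put both PBS arrays between the untreated and the uninjected OIR arrays.

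Adm, the vasodilator peptide adrenomedullin, and Gfap, the intermediate filament of reactive retinal glia, stood higher in PBS-injected OIR than in untreated retina, and Spc25, a kinetochore gene that is also a Müller glia transcript in mouse retina, stood lower. These 3 genes shared the smallest adjusted p, 0.116, so no gene passed the threshold of 0.05 in this design: 0 genes were called higher and 0 lower (0%), with limma on 2 arrays against 2. At an unadjusted p under 0.05 there were 2126 genes (9.14%), of which 1031 stood higher (4.43%) and 1095 lower (4.71%), where 1163 would fall below that value if no gene differed. The count ran from 500 without PBS array 1 to 4774 without untreated array 2, so list counts at that p depend on single arrays. Values of single genes below are therefore estimates with their intervals, and none is a called change. The shares over all tested genes, 4.43% higher and 4.71% lower, belong beside every list count at that p below. Precision was limited by the number of arrays: the median half-width of a 95% interval was 0.311 log2. Both PBS arrays lay above both untreated arrays for 4583 genes (19.7%) and below them for 6682 (28.7%). Among genes without overlap that differed at least 2-fold, 186 stood higher and 76 stood lower. Of these, 163 of the higher and 31 of the lower were small nucleolar, Cajal body, 5S, microRNA, predicted, unnamed, olfactory receptor or vomeronasal receptor genes. The median difference over all tested genes was -0.03, with 10340 genes above 0 and 12915 below.

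**Figure D2:**
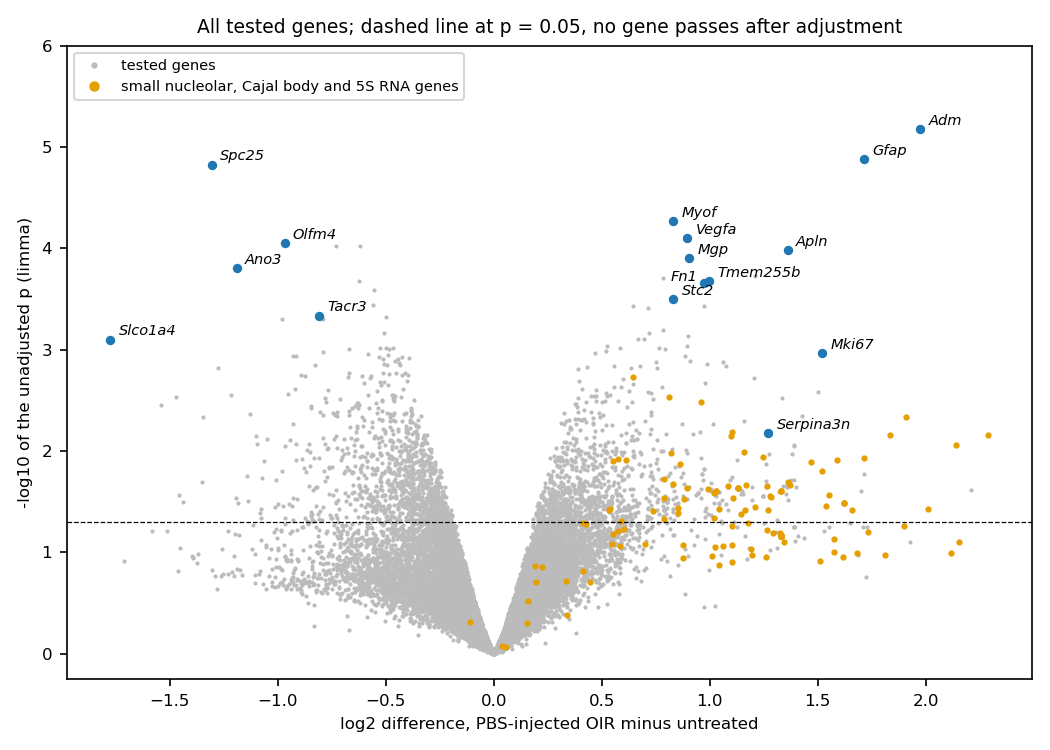
Difference between PBS-injected OIR and untreated retina (x axis, log2) against the unadjusted p from limma (y axis, -log10) for 23255 genes, with small nucleolar, Cajal body and 5S RNA genes in orange. Adm, Gfap and Spc25 lie at the top, all at an adjusted p of 0.116, and the orange points spread over the right side at larger p.

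Genes that hypoxia induces stood higher in PBS-injected OIR than in untreated retina. Of 33 tested HIF target genes, 16 stood higher at an unadjusted p under 0.05 and 0 lower, against 4.43% and 4.71% of all genes. Both PBS arrays lay above both untreated arrays for 23 of the 33, against 19.7% of all tested genes. The list's median difference was 0.31, with 30 of 33 values above 0. Leaving out 1 of the 4 arrays moved that median between 0.19 (without untreated array 1) and 0.44 (without untreated array 2), and the number higher at that p between 8 and 17. For reference, uninjected OIR had a median of 0.69 over untreated retina, a contrast that uses the same untreated arrays.

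Adm signal was 7.51 and 7.21 on the PBS arrays, 5.50 and 5.27 on the untreated arrays, and 8.87 and 8.36 on the uninjected OIR arrays. The 3 groups did not overlap and the PBS arrays lay between the other two. The difference from untreated retina was 1.97 ± 0.19 (SE; 95% interval 1.54 to 2.40; limma adjusted p = 0.116), and its size is not exact, because both untreated values lie below the median of the array's negative control probes. Vegfa, which encodes the vascular endothelial growth factor that drives sprouting in this model, read 9.84 and 9.64 with PBS and 8.81 and 8.88 without treatment. It stood 0.89 ± 0.12 higher, 1.86-fold (limma adjusted p = 0.270), and its PBS arrays came close to the uninjected OIR arrays at 9.94 and 9.91. Stc2, a secreted glycoprotein induced by hypoxia and endoplasmic reticulum stress, read 6.98 and 6.77 against 5.94 and 6.14. Its difference of 0.83 ± 0.14 (limma adjusted p = 0.407) compares with 0.90 in uninjected OIR.

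Pfkfb3, which makes the activator of the glycolytic enzyme phosphofructokinase, read 8.15 and 7.76 with PBS and 6.93 and 7.19 in untreated retina, a difference of 0.90 ± 0.17 (limma adjusted p = 0.477). Egln3, the HIF prolyl hydroxylase that hypoxia itself induces, read 7.02 and 6.66 against 6.32 and 5.79. In uninjected OIR the same gene reached 8.78 and 8.31, so its PBS arrays lay nearer to untreated retina. Epo, the erythropoietin gene, stood 0.48 ± 0.17 higher, with both untreated values below the negative control median. Egln1, the hydroxylase that sets HIF levels at rest, read 9.10 and 9.11 against 8.87 and 8.91, a difference of 0.21 ± 0.09.

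The sequences upstream of the 4 HIF target genes of smallest p are shown because members of this list stood higher together, and HIF binds the core motif ACGTG or GCGTG. Each line gives the 250 bases before the first start that RefSeq lists for the gene in GRCm38.p6, 5′ to 3′ on the gene's strand, with either motif or its reverse complement in capitals.
Adm, chr7:110627407-110627656, plus strand: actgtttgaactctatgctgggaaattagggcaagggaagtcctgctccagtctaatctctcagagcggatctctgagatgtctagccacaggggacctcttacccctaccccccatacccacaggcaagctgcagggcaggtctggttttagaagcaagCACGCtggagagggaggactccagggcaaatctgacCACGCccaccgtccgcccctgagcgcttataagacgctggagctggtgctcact
Vegfa, chr17:46032378-46032627, minus strand: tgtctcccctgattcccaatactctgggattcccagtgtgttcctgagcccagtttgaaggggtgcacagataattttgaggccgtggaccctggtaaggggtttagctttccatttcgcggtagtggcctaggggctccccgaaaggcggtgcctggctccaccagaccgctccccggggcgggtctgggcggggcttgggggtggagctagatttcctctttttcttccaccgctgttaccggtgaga
Stc2, chr11:31370062-31370311, minus strand: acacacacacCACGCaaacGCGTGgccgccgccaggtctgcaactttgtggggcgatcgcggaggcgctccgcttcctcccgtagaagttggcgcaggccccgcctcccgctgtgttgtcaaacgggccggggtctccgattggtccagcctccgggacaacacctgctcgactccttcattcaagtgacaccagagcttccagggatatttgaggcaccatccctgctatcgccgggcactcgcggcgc
Pfkfb3, chr2:11553930-11554179, minus strand: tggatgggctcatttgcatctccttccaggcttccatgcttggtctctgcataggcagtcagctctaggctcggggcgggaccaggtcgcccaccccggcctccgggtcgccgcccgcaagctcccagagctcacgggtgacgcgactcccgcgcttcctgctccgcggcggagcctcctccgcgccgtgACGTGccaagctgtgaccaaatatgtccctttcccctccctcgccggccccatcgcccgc
Adm and Stc2 hold 2 matches each, Pfkfb3 holds 1 and Vegfa holds 0 in this window. RefSeq lists a further start for Vegfa, whose window holds 2 matches, and for Pfkfb3, whose window holds 3. The Pfkfb3 matches at -53 and -52 overlap in a single CACGTG. Both further windows lie downstream of the gene's first start, and they are counted in the list's share. Over all such windows in the RefSeq table, 38.6% of 32851 hold a match. For the HIF target genes, 27 of 34 have a window, and 31 of their 39 windows (79.5%) hold one. The genes were listed as HIF targets and the windows are not matched for base composition, so the shares are given side by side only. A match is a stretch of letters and not a bound site, and a window without one says nothing about binding elsewhere.

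The enzymes of glycolysis, many of which are HIF targets, did not follow as a group. Of 21 tested glycolysis genes, 3 stood higher at an unadjusted p under 0.05 and 0 lower, and the median difference was 0.03. The number higher ran from 1 (without PBS array 1 or untreated array 1) to 9 (without untreated array 2). That median was -0.17 without untreated array 1 and 0.23 without untreated array 2, so its sign depended on which untreated array was used. The 3 genes were Pfkfb3, Pfkp, the platelet form of phosphofructokinase, at 0.39 ± 0.13, and Slc2a3, the neuronal glucose transporter, at 0.60 ± 0.22. For Slc2a3, the arrays read 8.97 and 8.92 with PBS and 7.98 and 8.70 in untreated retina, so untreated array 1 alone made most of its gap. Uninjected OIR had a list median of 0.43.

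Genes of sprouting vessels stood higher. Among 25 tested endothelial tip cell genes, those that mark the leading cells of a sprout, 13 stood higher at an unadjusted p under 0.05 and 0 lower, and the median difference was 0.39. Leaving out 1 array kept the median between 0.28 and 0.43, while the number higher dropped to 7 without PBS array 1. In bulk retina, more cells of a type and more RNA per cell cannot be told apart, here or for any other cell type. Apln, the apelin peptide of tip cells, read 6.72 and 6.31 on the PBS arrays and 5.00 and 5.31 on the untreated arrays, without overlap. It stood 1.36 ± 0.19 higher (limma adjusted p = 0.270), a size that is not exact because the untreated values lie below the negative control median. Mcam, an endothelial and pericyte adhesion molecule, read 8.03 and 7.51 against 6.64 and 6.78, a difference of 1.06 ± 0.22, or 2.09-fold (limma adjusted p = 0.477). Cd34, a surface sialomucin found on sprouting endothelium, stood 0.73 ± 0.18 higher.

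Another pair of tip cell genes lay closer to untreated retina than to uninjected OIR. Angpt2, the vessel-destabilising angiopoietin, read 6.88 and 6.60 with PBS and 6.22 and 6.33 in untreated retina, a difference of 0.46 ± 0.13 (limma adjusted p = 0.537). Uninjected OIR read 8.22 and 8.07 for it, far above the PBS arrays. Esm1, an endothelial proteoglycan of tip cells, read 5.75 and 5.52 against 5.06 and 5.16, with all 4 values below the negative control median. In uninjected OIR it reached 6.88 and 6.53.

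The wider list of angiogenic ligands and receptors had 11 of 31 tested members higher and 1 lower at an unadjusted p under 0.05, with a median of 0.16, and 6 stood higher without PBS array 1. Fgf2, a growth factor that injured retina makes in quantity, read 8.45 and 7.72 against 6.99 and 6.77, a difference of 1.20 ± 0.26 (limma adjusted p = 0.494). Edn2, the endothelin of stressed photoreceptors, stood 0.43 ± 0.11 higher. General endothelial genes had 3 of 21 higher and 3 lower, with a median of 0.11, and without PBS array 1 there was 1 higher. Among pericyte and smooth muscle genes, 1 of 15 stood higher and 0 lower, from 0 without PBS array 1 to 3 without PBS array 2. That gene was Rgs5, a regulator of G protein signalling in pericytes, at 10.22 and 9.97 against 9.68 and 9.28. The share higher on the pericyte list was 6.67%, against 4.43% of all tested genes.

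Members of the endothelial and the barrier lists went both ways. On the endothelial list, Slco1a4, an organic anion transporter of barrier endothelium, read 5.47 and 5.44 on the PBS arrays and 7.51 and 6.96 on the untreated arrays. The groups stood well apart, by 1.77 ± 0.33 log2 lower with PBS (limma adjusted p = 0.477), and the size is not exact since the PBS values lie below the negative control median. Uninjected OIR was at 5.93 and 4.90, around the PBS values. Ly6c1, a surface protein of capillary endothelium, read 5.86 and 6.10 against 7.23 and 6.62. On the barrier list, Cldn5, the main tight junction claudin of endothelium, went the other way, at 7.48 and 7.56 against 6.73 and 7.20. Mfsd2a, the lipid transporter that keeps barrier endothelium from forming vesicles, read 6.92 and 7.00 against 7.22 and 7.23. Cldn5 and Mfsd2a were the 1 higher and the 1 lower at an unadjusted p under 0.05 among the 14 tested barrier genes, whose median was 0.04.

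**Figure D3:**
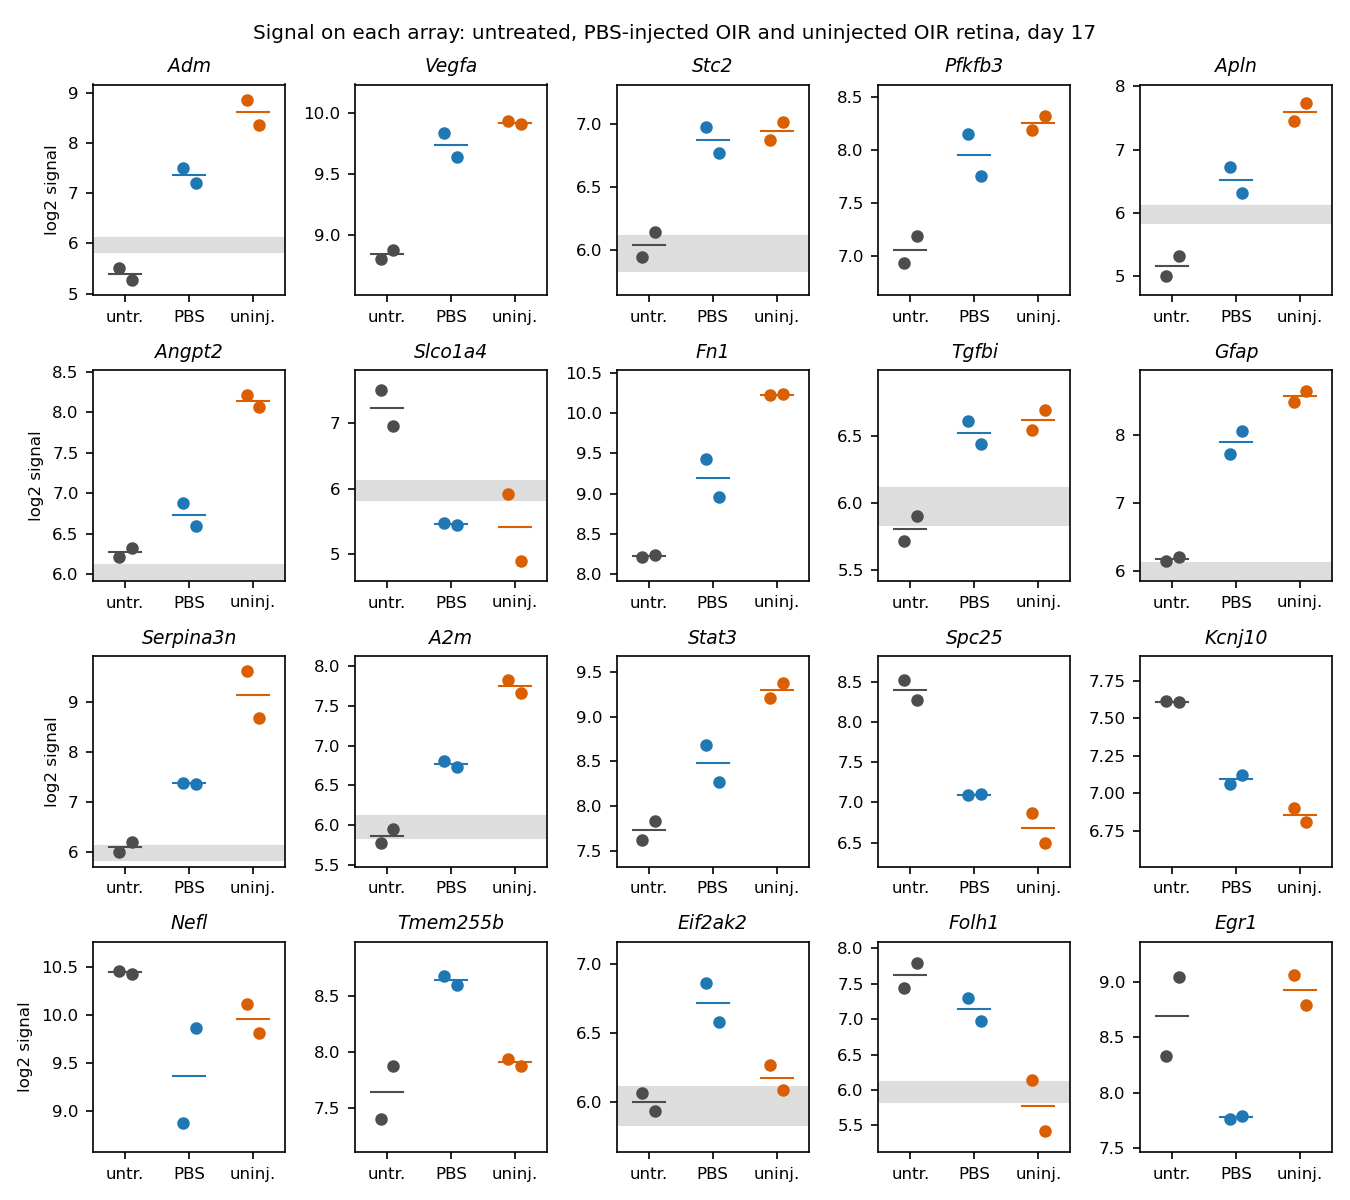
Log2 signal of 20 genes (y axes) on the 2 arrays each of untreated, PBS-injected OIR and uninjected OIR day 17 retina (x axes), with a line at each group mean and a grey band over the range of the arrays' negative control medians. For Adm, Apln, Gfap, Serpina3n, Fn1 and Stat3 the PBS arrays lie between both other groups, for Vegfa and Stc2 they lie near or among the uninjected OIR arrays, and for Angpt2 and Folh1 they lie nearer to untreated retina.

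Reactive glia genes stood higher in PBS-injected OIR. Of 27 tested members, 10 stood higher at an unadjusted p under 0.05 and 0 lower, 25 had values above 0, and the median difference was 0.32. The list hardly depended on single arrays, with a median of 0.28 to 0.31 when any 1 of the 4 was left out. Gfap read 7.72 and 8.05 on the PBS arrays against 6.15 and 6.20 on the untreated arrays. Both groups were tight and far apart, and the difference of 1.71 ± 0.18 (95% interval 1.30 to 2.12; limma adjusted p = 0.116) is 3.28-fold. Uninjected OIR read 8.49 and 8.65.

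A2m, the protease inhibitor alpha-2-macroglobulin, read 6.80 and 6.73 against 5.78 and 5.95 (0.90 ± 0.17). Stat3, the transcription factor through which cytokines of the interleukin-6 family act on Müller glia, read 8.68 and 8.28 against 7.63 and 7.83 (0.75 ± 0.15). Both stood apart from untreated retina on each array, as did C4b, a complement component made by reactive glia, at 6.85 and 6.43 against 5.79 and 5.99. Serpina3n, the acute-phase serpin that marks reactive astrocytes, read 7.38 and 7.36 against 6.01 and 6.20, a difference of 1.27 ± 0.35, or 2.41-fold (limma adjusted p = 0.537). Its uninjected OIR arrays read 9.61 and 8.67, and were themselves far apart. Cebpd, an acute-phase transcription factor, read 6.33 and 6.30 against 6.17 and 5.56, a difference of 0.45 ± 0.20 whose 95% interval, -0.02 to 0.92, includes 0. Of the leukaemia inhibitory factor and STAT3 pathway genes, 2 of 18 stood higher and 1 lower, with a median of 0.07.

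Müller glia genes of the resting retina leaned lower. Among 18 tested homeostatic Müller glia genes, 5 stood lower and 1 higher at an unadjusted p under 0.05, and the median difference was -0.21, between -0.40 (without PBS array 2) and -0.04 (without untreated array 2). Without PBS array 1 or untreated array 2, 3 stood lower. Spc25 read 7.09 and 7.10 on the PBS arrays and 8.52 and 8.28 on the untreated arrays, a difference of -1.30 ± 0.14 (95% interval -1.62 to -0.99; limma adjusted p = 0.116). The uninjected OIR arrays were at 6.87 and 6.50. Kcnj10, the potassium channel through which Müller glia buffer potassium, read 7.06 and 7.12 against 7.61 and 7.61 (-0.52 ± 0.12). Aqp4, the water channel of Müller end feet, read 7.11 and 7.37 against 7.59 and 7.68 (-0.39 ± 0.12). Abca8a, a lipid transporter, stood at -0.48 ± 0.12. The 1 higher gene was Slc1a3, the glutamate transporter of Müller glia, at 0.25 ± 0.10, a name added after the values were seen.

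Extracellular matrix genes stood higher in PBS-injected OIR, and some of them are also on the tip cell list. Of 32 tested matrix genes, 15 stood higher at an unadjusted p under 0.05 and 0 lower, 28 were above 0, and the median difference was 0.34. Without 1 array the median stayed between 0.26 and 0.36, and the number higher was 8 without PBS array 1. Fn1, fibronectin, read 9.43 and 8.96 with PBS, 8.21 and 8.23 in untreated retina, and 10.23 and 10.24 in uninjected OIR. The 3 groups were separate, and PBS lay 0.97 ± 0.15 above untreated retina, 1.96-fold (limma adjusted p = 0.320). Tgfbi, a secreted adhesion protein induced by transforming growth factor beta, read 6.61 and 6.44 against 5.72 and 5.90 (0.72 ± 0.12; limma adjusted p = 0.407). Nid1, the nidogen that links laminin to collagen IV in basement membrane, stood 0.74 ± 0.17 higher and its relative Nid2 0.39 ± 0.08 higher. 2 fibrillar collagens stood near 0: Col1a1, at 0.01 ± 0.11, and Col3a1, at 0.06 ± 0.11, had intervals that include 0. These collagens fall outside the rule for named genes and were picked after their values were seen. Among CCN and YAP-TEAD target genes, which report mechanical and matrix signals, 4 of 15 stood higher and 0 lower, with 1 higher without PBS array 1 or untreated array 1.

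Some of the genes of smallest p belonged to few or none of the lists. Myof, a membrane repair protein that supports VEGF receptor levels in endothelium, read 7.66 and 7.50 against 6.78 and 6.72 (0.83 ± 0.10; limma adjusted p = 0.270). Mgp, matrix Gla protein, an inhibitor of calcification made by vessels, read 7.54 and 7.39 against 6.58 and 6.55 (0.90 ± 0.13; limma adjusted p = 0.292). Both were separate from untreated retina by several times the spread within a group. On the lower side, Tacr3, the neurokinin receptor found on some bipolar cells, read 7.46 and 7.37 against 8.36 and 8.09 (-0.81 ± 0.14; limma adjusted p = 0.450). Kcnc2, a fast potassium channel of interneurons, read 6.62 and 6.72 against 7.61 and 7.32 (-0.79 ± 0.14). Olfm4, a secreted olfactomedin, read 5.27 and 5.56 against 6.28 and 6.48, and Ano3, a membrane protein of the anoctamin family, read 5.60 and 5.86 against 7.14 and 6.69. For Olfm4 and Ano3 the PBS values lie below the negative control median, so the sizes are not exact.

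**Figure D4:**
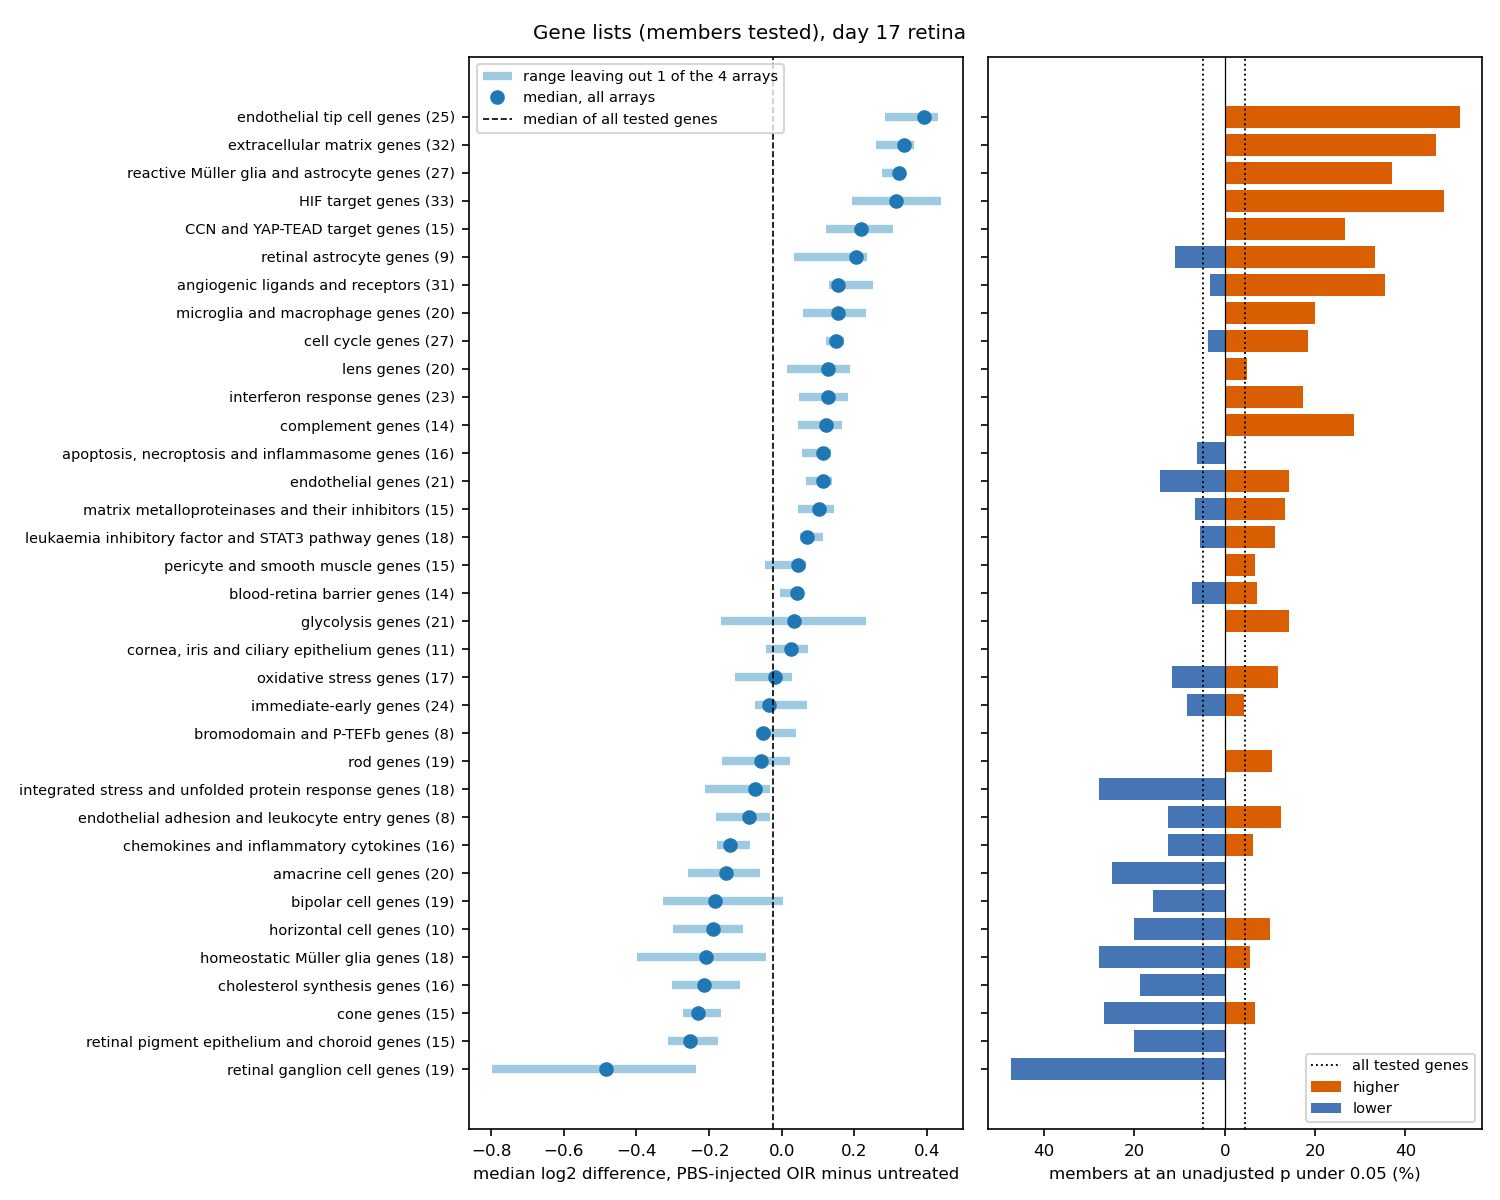
Median log2 difference of each gene list with 5 or more tested members (left, x axis, with the range when 1 of the 4 arrays is left out) and percent of members at an unadjusted p under 0.05 (right, x axis; higher in orange, lower in blue; dotted lines at 4.43% and 4.71% for all tested genes). Tip cell, matrix, reactive glia and HIF target genes lie at the top with medians of 0.31 to 0.39, and retinal ganglion cell genes lie at the bottom at -0.48 with a wide range.

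Whether PBS-injected OIR differed from uninjected OIR was tested directly in the same fit. No gene passed an adjusted p of 0.05 (0%), and at an unadjusted p under 0.05 there were 408 genes higher with PBS (1.75%) and 589 lower (2.53%). Against untreated retina, uninjected OIR had 106 genes higher (0.456%) and 9 lower (0.0387%) at an adjusted p under 0.05, where PBS-injected OIR had none. That is not by itself a difference between the injected and uninjected retina, and both contrasts use the same untreated arrays. The median of PBS-injected minus uninjected OIR was -0.66 for reactive glia genes, -0.34 for tip cell genes, -0.29 for HIF targets and -0.16 for matrix genes, against 0.01 over all tested genes.

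The smallest p in that direct test belonged to Angpt2 and Spidr. Angpt2 was 1.41 ± 0.13 log2 lower with PBS than without injection (95% interval -1.70 to -1.11; limma adjusted p = 0.0880). Spidr, a scaffold protein of DNA repair, read 6.48 and 6.20 with PBS, 7.72 and 7.52 in uninjected OIR, and 6.11 and 5.96 in untreated retina, so the PBS arrays lay near untreated retina. Hmox1, heme oxygenase 1, read 6.86 and 7.19 with PBS, 8.41 and 8.92 without injection, and 6.09 and 6.18 in untreated retina, and was 1.64 ± 0.26 below uninjected OIR (limma adjusted p = 0.217). Egln3 was 1.70 ± 0.23 below uninjected OIR, Serpina3n 1.77 ± 0.35, Cebpd 1.37 ± 0.20, Adm 1.25 ± 0.19, and Fn1 1.04 ± 0.15, with limma adjusted p-values of 0.186 to 0.361. Dusp16, a phosphatase of stress-activated kinases, read 7.39 and 7.23 with PBS and 7.25 and 7.24 in untreated retina against 7.94 and 8.06 in uninjected OIR. Folh1, a glutamate carboxypeptidase, was lower in uninjected OIR, at 6.14 and 5.42, than with PBS, at 7.30 and 6.98, or in untreated retina, at 7.44 and 7.79.

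Other hypoxia and matrix genes did not separate the injected from the uninjected retina. Vegfa was 0.19 ± 0.12 lower with PBS (95% interval -0.46 to 0.09), Stc2 0.07 ± 0.14 lower (-0.39 to 0.24), Pfkfb3 0.30 ± 0.17 lower (-0.70 to 0.10), and Tgfbi 0.09 ± 0.12 lower (-0.37 to 0.19). Those intervals include 0 and also leave room for real gaps, so they do not show equal levels. For Slco1a4 the difference was 0.04 ± 0.33 and for C4b it was -0.05 ± 0.16.

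Some genes lay on 1 side of both untreated and uninjected OIR retina with PBS, and OIR retina injected with ISOX DUAL is given beside them. Tmem255b, a transmembrane protein, read 8.68 and 8.60 with PBS, 7.41 and 7.87 in untreated retina, and 7.94 and 7.88 in uninjected OIR. The PBS arrays stood above all 4 others, by 1.00 ± 0.15 over untreated retina (limma adjusted p = 0.320) and 0.73 ± 0.15 over uninjected OIR (limma adjusted p = 0.427). Eif2ak2, the double-stranded RNA sensor PKR, read 6.86 and 6.58 against 6.07 and 5.94 in untreated retina and 6.27 and 6.09 in uninjected OIR. With ISOX DUAL, Tmem255b read 8.49 and 8.44 and Eif2ak2 6.54 and 6.70, also above the other two groups. Cldn5 was 0.52 ± 0.17 higher with PBS than without injection, and ISOX DUAL gave 7.21 and 7.38. In the opposite sense, Egr1, an immediate-early transcription factor, read 7.76 and 7.79 with PBS, below untreated retina at 8.34 and 9.04 and below uninjected OIR at 9.07 and 8.79, while ISOX DUAL gave 7.69 and 7.91. Egr1 was 0.91 ± 0.28 below untreated retina and 1.15 ± 0.28 below uninjected OIR, and neither difference passed after adjustment (limma adjusted p = 0.537 and 0.621).

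**Figure D5:**
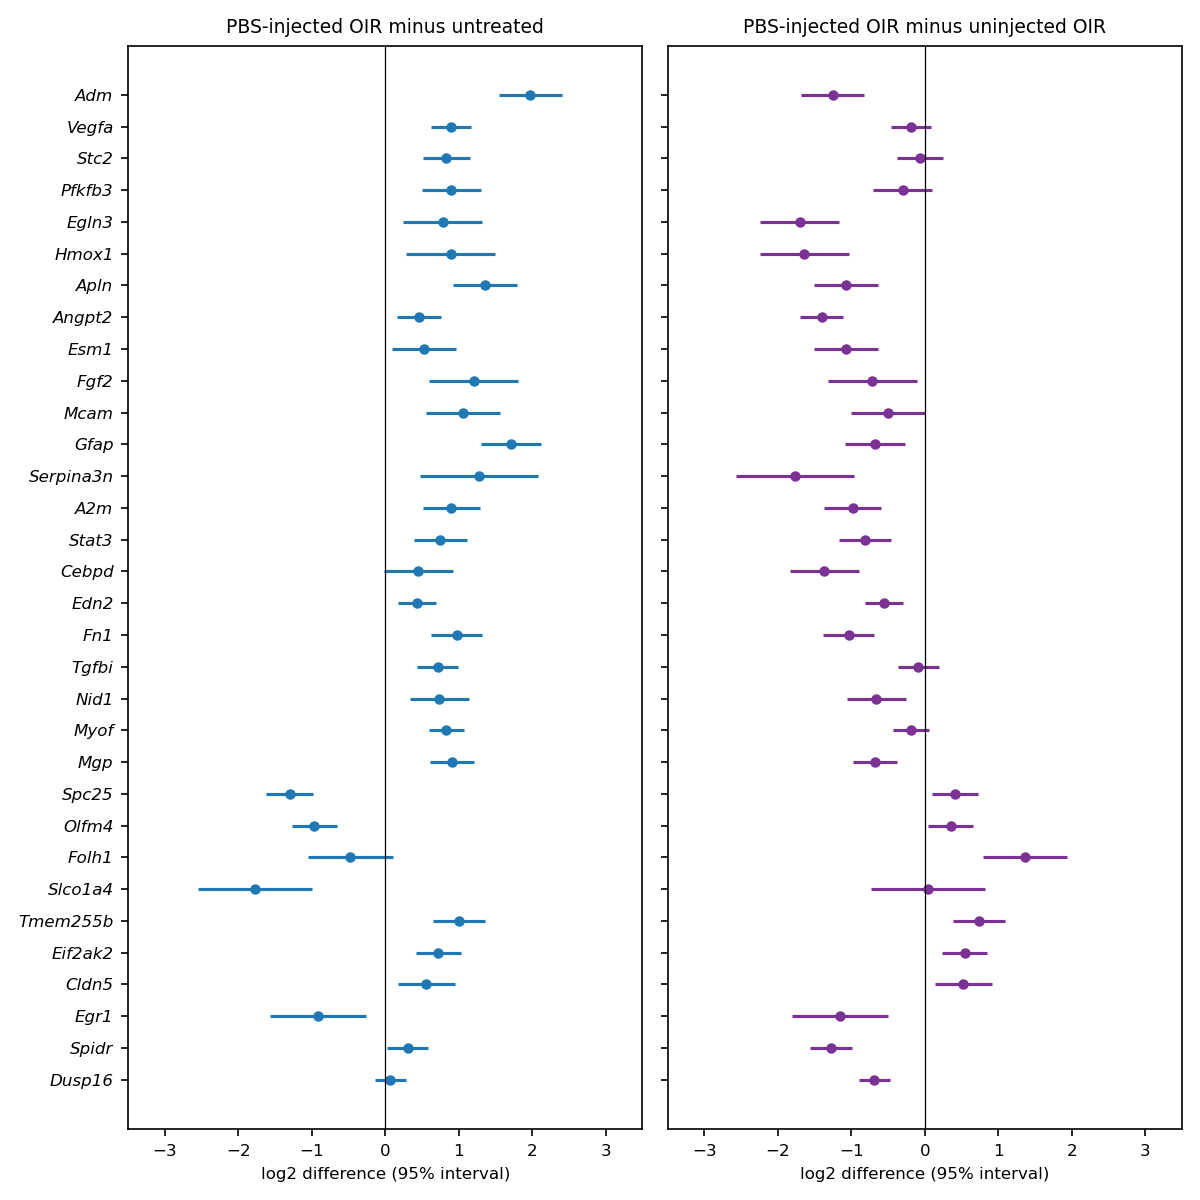
Log2 difference with its 95% interval (x axes) for 32 genes (rows), PBS-injected OIR minus untreated retina on the left and PBS-injected minus uninjected OIR on the right. Vegfa, Stc2, Tgfbi and Slco1a4 lie away from 0 on the left and have intervals that include 0 on the right, whereas Angpt2, Egln3, Hmox1 and Spidr lie farther from 0 on the right than on the left.

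Genes of retinal ganglion cells, the output neurons of the retina, gave the lowest list median. Its size depended most on the PBS arrays. The count at an unadjusted p under 0.05 changed when any 1 of the 4 arrays was left out. Of 19 tested members, 9 stood lower at an unadjusted p under 0.05 and 0 higher, 14 had both PBS arrays below both untreated arrays (28.7% of all tested genes did), and the median difference was -0.48. The list averaged 7.21 and 7.80 on PBS arrays 1 and 2, 8.01 and 8.10 on the untreated arrays, and 7.92 and 7.72 in uninjected OIR. Without PBS array 1, which is also the array highest in small nucleolar RNA, the median was -0.24 and 0 members stood lower at that p. The median was -0.80 without PBS array 2, -0.54 without untreated array 1 and -0.43 without untreated array 2. Nefl, the neurofilament light chain, read 8.87 and 9.86 with PBS and 10.46 and 10.42 in untreated retina (-1.07 ± 0.36). Nrn1, the neuritin gene of ganglion cells, read 7.16 and 8.10 against 8.73 and 8.54, and Nefh, the neurofilament heavy chain, 7.63 and 8.00 against 8.46 and 8.46. In each, PBS array 1 lay lowest of the PBS and untreated arrays, and PBS array 2 lay between it and untreated retina. OIR retina injected with ISOX DUAL read 9.24 and 8.64 for Nefl, 7.38 and 6.87 for Nrn1, and 7.78 and 7.52 for Nefh. The list's median over the same untreated arrays was -0.81 with ISOX DUAL and -0.24 in uninjected OIR. A set of 33 genes named for subunits of mitochondrial complex I averaged 7.74 and 8.10 on the PBS arrays and 8.15 and 8.25 on the untreated arrays. Its members carry an Ndufa, Ndufb, Ndufc, Ndufs or Ndufv symbol that ends in a number, and it was picked after its values were seen. The link between these sets on PBS array 1 was not tested.

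Amacrine, bipolar, horizontal and cone cell genes leaned lower by smaller amounts, while rod genes lay near the median of all tested genes, -0.03. Amacrine cell genes, of inhibitory interneurons, had 5 of 20 tested members lower and 0 higher at an unadjusted p under 0.05 (median -0.15), among them Gad1, which makes the transmitter GABA, at 8.56 and 8.68 against 9.17 and 9.16, and Tfap2b, a transcription factor of these cells, at 9.49 and 9.60 against 10.05 and 10.01. Without PBS array 1 the amacrine list had 1 member lower and a median of -0.06. Bipolar cell genes had 3 of 19 lower and 0 higher (median -0.18, and 0.00 without untreated array 2), and 0 lower without PBS array 1. Horizontal cell genes had 2 of 10 lower and 1 higher (median -0.19), and their number lower ran from 0 without PBS array 1 to 4 without untreated array 2. Cone genes had 4 of 15 lower and 1 higher (median -0.23), but 0 lower without PBS array 1, PBS array 2 or untreated array 1. Opn1mw, the green cone opsin, read 10.29 and 10.32 with PBS and 11.37 and 10.91 in untreated retina (-0.84 ± 0.30), without overlap. Rod genes had 2 of 19 higher and 0 lower with a median of -0.06, and from 0 (without PBS array 1) to 6 (without untreated array 2) higher. The 2 were Rp1 and Nrl, a share of 10.5% against 4.43% of all tested genes. Rp1, a microtubule protein of the outer segment, read 9.51 and 9.43 against 9.14 and 8.89. Nrl, the transcription factor of rod fate, read 9.34 and 9.36 against 8.75 and 9.25.

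The immune gene lists had small medians, while single members lay farther from 0. C4b, of the complement list, stood at 0.75 ± 0.16, and Eif2ak2, of the interferon list, at 0.72 ± 0.13. Below 0 lay 6 of 14 complement genes and 5 of 23 interferon genes. The lowest complement gene lay farther from 0 than C4b. Microglia and macrophage genes had 4 of 20 tested members higher and 0 lower at an unadjusted p under 0.05, with a median of 0.16, and 7 of the 20 lay below the negative control median in both groups. Without PBS array 2 or without untreated array 1 there were 0 higher, and the median was 0.06 without PBS array 2 or untreated array 2. The 4 were C1qa and C1qc, chains of complement C1q, at 0.35 ± 0.12 and 0.30 ± 0.12, Itgam, the integrin CD11b, at 0.29 ± 0.11, and Lyz2, lysozyme, at 0.34 ± 0.13. Each had both PBS arrays above both untreated arrays (19.7% of all tested genes did), with signals of 6.67 or less. For Itgam and Lyz2 the untreated values lie below the negative control median, as do the PBS values of Lyz2, so these sizes are not exact. Complement genes had 4 of 14 higher and 0 lower (median 0.12), with 1 higher without PBS array 2 or untreated array 1, and chemokines and inflammatory cytokines had 1 of 16 higher and 2 lower (median -0.14). Interferon response genes had 4 of 23 higher and 0 lower (median 0.13), with 1 higher without PBS array 1 or untreated array 1. Besides Eif2ak2, those were Irf9, the DNA-binding part of the interferon-activated complex, at 0.36 ± 0.11, H2-K1, a class I histocompatibility gene, at 0.34 ± 0.12, and Parp14, an interferon-induced ADP-ribosyltransferase whose values lie below the negative control median.

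Stress response genes gave values on either side of 0. Of 18 tested integrated stress and unfolded protein response genes, 5 stood lower at an unadjusted p under 0.05 and 0 higher, with 7 of 18 values above 0 and a median of -0.07. Hspa5, the chaperone BiP, read 8.68 and 8.73 with PBS and 9.02 and 9.37 in untreated retina (-0.49 ± 0.16). Hsp90b1, the chaperone GRP94, read 9.69 and 9.78 against 10.36 and 10.15 (-0.52 ± 0.18), and Xbp1, the transcription factor of the unfolded protein response, 7.73 and 7.71 against 8.37 and 8.32 (-0.62 ± 0.23). The PBS arrays lay below the untreated arrays for each of these genes, and the number of list members lower at that p ran from 0 without PBS array 1 to 3 without PBS array 2. In uninjected OIR, Hspa5 read 9.31 and 9.32 and Xbp1 8.63 and 8.29, near or above untreated retina. Immediate-early genes had 1 of 24 higher and 2 lower (median -0.03, against 0.45 in uninjected OIR). Oxidative stress genes had 2 of 17 higher and 2 lower (median -0.02).

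Cell cycle genes had 5 of 27 tested members higher and 1 lower at an unadjusted p under 0.05, with a median of 0.15, and 14 of the 27 lay below the negative control median in both groups. Without PBS array 1 or untreated array 2 there were 2 higher. Mki67, the proliferation antigen Ki-67, read 6.61 and 6.07 with PBS, 5.14 and 4.49 in untreated retina, and 6.77 and 6.54 in uninjected OIR. The difference from untreated retina was 1.52 ± 0.30 (limma adjusted p = 0.477), and it is not exact, as the untreated values lie below the negative control median. Cholesterol synthesis genes had 3 of 16 lower and 0 higher (median -0.21), and 0 lower without PBS array 1 or untreated array 1. They include Idi1, isopentenyl diphosphate isomerase, at 6.08 and 6.54 against 7.51 and 6.87, and Fdft1, squalene synthase, at 7.46 and 7.85 against 8.51 and 8.14. For both genes the untreated arrays also differed among themselves. Apoptosis, necroptosis and inflammasome genes had 0 of 16 higher and 1 lower. Matrix metalloproteinases and their inhibitors had 2 of 15 higher and 1 lower, endothelial adhesion and leukocyte entry genes 1 of 8 higher and 1 lower, astrocyte genes 3 of 9 higher (1 without PBS array 1) and 1 lower, and bromodomain and P-TEFb genes 0 of 8 in either direction.

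Gene lists of neighbouring tissues had medians on either side of 0. All 15 tested genes of the retinal pigment epithelium and choroid, the layers behind the retina, had differences below 0, with 3 lower at an unadjusted p under 0.05 (0 without PBS array 1) and a median of -0.25. Rgr, an opsin of pigment epithelium and Müller glia, read 7.55 and 7.94 against 8.94 and 8.82, and Rpe65, the visual cycle isomerase, 5.88 and 6.19 against 7.71 and 6.57. The list averaged 6.69 and 6.85 on the PBS arrays, 7.27 and 7.05 on the untreated arrays, and 7.03 and 6.58 in uninjected OIR. It shares Otx2 with the bipolar list and Rlbp1 with the homeostatic Müller glia list, so it is not specific to tissue behind the retina. Of 20 tested lens genes, 17 had values above 0 and 1 stood higher at that p (5%, against 4.43% of all tested genes). That gene was Crygb, a gamma crystallin, at 6.50 and 6.51 against 5.12 and 5.78. Over all tested genes, 10340 lay above 0 and 12915 below. The lens median over untreated retina was 0.13 with PBS, 0.79 with ISOX DUAL and -0.12 in uninjected OIR. Lens genes averaged 6.10 and 6.33 with PBS, 5.89 and 6.09 in untreated retina, and 5.84 and 5.91 in uninjected OIR. Cryaa, the major alpha crystallin, read 7.30 and 8.34 against 6.48 and 7.11, and its interval of -1.31 to 3.35 includes 0. Cornea, iris and ciliary epithelium genes had 0 of 11 in either direction. Only 2 of 8 red blood cell genes could be tested, and neither stood apart. The part that such tissue has in the other differences was not tested.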

How the data were processed

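Total RNA from retina was extracted with Trizol, labelled with biotin and hybridised to Affymetrix whole-transcript arrays, 2 per group, per the labels' protocols. The deposited values are log2 signals, 1 for each cluster on each array, a scale read from the values. Which software, background correction and normalization made them is not given in the sources used here. They were used as they are. Control rows (6732 of 72688) were set aside. Where a gene had several single-symbol clusters, the one of highest mean stood for it, and a gene entered the test when its signal exceeded the array's 30th percentile on 2 or more arrays. Symbols were updated through RefSeq genes of GRCm38.p6. The medians of the arrays' negative control probes were 5.83 to 6.11, and 8.00% to 9.97% of clusters exceeded their 95th percentile. A fold is left out where both arrays of the lower group lie under the negative control median, which was decided after the values were seen.

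The model was limma 3.58.1 under R 4.3.3 (lmFit, then eBayes with no trend) with all 10 arrays in 5 groups. The remaining groups, untreated day 7 and OIR with ISOX DUAL among them, add to the estimate of the spread (5 residual and 2.76 prior degrees of freedom). Of 665 genes in 36 lists, 587 were tested, 23 lay under the filter and 55 had no cluster of their own, and 63 are in more than 1 list. The comparison, its members and the lists were chosen with earlier results of these data known. Genes were named by a rule. Outside the lists it left out predicted, unnamed, small nucleolar, Cajal body, 5S, microRNA, olfactory receptor and vomeronasal receptor genes. Since no gene passed the threshold, it took the 10 of smallest p in each direction and up to 4 of smallest p from each list. A fixed set joined them (Vegfa, Epo, Gfap, Edn2, Esm1, Apln, Angpt2, Adm, Serpina3n, Hmox1, Egln3, Folh1, Olfm4, Spc25, Spidr, Dusp16 and Cryaa), as did the 5 of smallest p against uninjected OIR in each direction. The steps were tested on simulated data.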

Additional observations from a re-analysis of the deposited data

Results flagged for a closer look

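Bsph1, a binder of sperm protein, differed in direction between the injected and the uninjected OIR retina. Its PBS arrays read 4.89 and 4.75, both above the untreated arrays at 4.14 and 4.14, and its uninjected OIR arrays read 3.79 and 4.05, both below them. PBS minus uninjected OIR was 0.90 ± 0.14 log2 (limma adjusted p = 0.217), which does not pass the threshold. Every value lies below the median of the array's negative control probes.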

How the results depend on the processing

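No gene passed an adjusted p of 0.05 with the 4 arrays alone, with an intensity trend and robust fit, array weights, quantile normalization, median centring, no filter, a filter at the negative control percentile, the mean over clusters, or without any 1 of the 10 arrays (0 to 0 in each direction). Same-numbered PBS and untreated arrays did not deviate together (r = -0.0567 across genes), so no pairing was assumed, although same-numbered arrays did among the 3 uninjected groups (0.583 to 0.809) and between PBS and ISOX DUAL (0.399). With the replicate block, 2 genes were higher, Adm (adjusted p = 0.0201) and Gfap (0.0420), and 0 lower; against uninjected OIR it called 5 lower, among them Angpt2, Egln3, Hmox1 and Spidr. With the numbers crossed as a block, an alternative added after seeing the data because PBS and uninjected OIR arrays deviated oppositely (r = -0.406), 34 genes were higher and 9 lower, and 1 also differed from uninjected OIR. Over protein-coding genes only, also added, 2 were higher and 1 lower (Adm, Gfap and Spc25, adjusted p = 0.0459). The count at an unadjusted p under 0.05, 2126 over all arrays, was 330 of 4523 genes with the negative control filter and 4257 with crossed numbers. It ran from 500 (without PBS array 1) to 4774 (without untreated array 2), with 868 without untreated array 1. Of the named genes' differences, 2 changed sign: Ep300, -0.39, ran from -0.85 (without untreated array 2) to 0.080 (without untreated array 1), and Dusp16, 0.07, from -0.012 (without PBS array 1) to 0.14 (without PBS array 2). The causes were not tested.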

Other observations

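Txnip, the thioredoxin-interacting protein that glucose induces and that restrains glucose uptake, was picked after its values were seen. It read 8.30 and 8.10 with PBS, 7.19 and 7.06 in untreated retina and 7.48 and 7.27 in uninjected OIR. The PBS arrays stood above all 4 others, by 1.08 ± 0.22 over untreated retina (limma adjusted p = 0.477) and 0.83 ± 0.22 over uninjected OIR (limma adjusted p = 0.796). Both arrays of OIR retina injected with ISOX DUAL, at 8.29 and 8.15, lay in the range of the PBS arrays.

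Xlr3a, an X-linked lymphocyte-regulated gene, read 4.58 and 4.66 with PBS, which is 0.98 ± 0.17 log2 below untreated retina (limma adjusted p = 0.450) and 1.12 ± 0.17 below uninjected OIR (limma adjusted p = 0.193). With ISOX DUAL it read 4.51 and 4.40. Its values in these groups lie below the negative control median. The first and second arrays of a group differed with a standard deviation over genes of 0.223 log2 for PBS, 0.341 for untreated day 17 and 0.325 for uninjected OIR retina.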
